A study of Mus musculus with 6 samples.

Results

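The 10 genes studied here carry C/EBP names or encode other transcription factors known for granulocyte formation, and they were examined in neutrophils of mouse bone marrow. They were chosen by name: the C/EBP genes *Cebpa*, *Cebpb*, *Cebpd*, *Cebpe*, *Cebpg* and *Cebpz*, and the factors *Spi1* (which encodes PU.1), *Gfi1*, *Runx1* and *Lef1*. They make up 10 of the 55401 genes in the deposited table. Each had counts in every library, 9 passed a filter on mean FPKM (fragments scaled to transcript length and to the mapped fragments of a library) of at least 1, and *Lef1* lay under it. The cells were sorted as CD45+ CD11b+ Ly6G+ from the marrow of 8-week-old male wild type C57BL/6 mice. In the Lig group (3 libraries), silk ligatures were tied around molars of both jaws for 14 days to induce periodontitis, whereas the Ctrl group (3 libraries) carried no ligature. The methods describe no sham procedure for the mice of these libraries. Each library was a pool of cells from several mice, so that the spread between libraries is a spread between pools, and the procedure and the gum inflammation cannot be told apart. The comparison asks whether the transcripts of these factors differed in marrow neutrophils between ligated and unligated mice.

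C/EBP proteins are basic leucine zipper (bZIP) factors that bind DNA as dimers, and successive members act along the path from progenitor to neutrophil. C/EBPα and PU.1 act early, in the formation of granulocyte and monocyte progenitors, and Gfi1 represses monocyte genes on the neutrophil branch. C/EBPε drives the secondary granule genes of later precursors, and C/EBPβ is known for granulopoiesis under infection or cytokine demand.

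Promoter sequence was at hand in the RefSeq promoter windows (build GRCm38.p6, 250 bases before to 50 after a start) for 6 of the 10 members. The 250 bases before the start of *Cebpa* and *Cebpb* are shown because these are the early and the most abundant C/EBP gene. For *Gfi1*, the 30 bases around its match to the C/EBP core are shown. Capitals mark matches to TTGCNNAA (core of C/EBP dimer sites), to CCAAT (known for NF-Y), to the motif TGACG (the core that CREB and ATF factors share) and to TATAAA (the TATA box) on either strand, and no match overlapped another.
Cebpa, chr7:35119043-35119292, plus strand: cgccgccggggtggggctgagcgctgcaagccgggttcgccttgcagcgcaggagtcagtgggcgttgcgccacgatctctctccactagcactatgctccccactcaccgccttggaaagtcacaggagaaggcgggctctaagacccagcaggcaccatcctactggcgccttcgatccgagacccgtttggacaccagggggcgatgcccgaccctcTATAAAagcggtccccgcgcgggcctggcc
Cebpb, chr2:167688665-167688914, plus strand: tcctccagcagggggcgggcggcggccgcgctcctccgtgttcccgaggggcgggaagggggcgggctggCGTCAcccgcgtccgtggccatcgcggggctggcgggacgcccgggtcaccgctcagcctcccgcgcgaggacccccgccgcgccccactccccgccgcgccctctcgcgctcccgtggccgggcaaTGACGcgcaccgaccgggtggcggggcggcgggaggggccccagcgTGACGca
Gfi1, chr5:107725930-107725959, minus strand: cgaaggtaggtTTGCTGAActgctgtgcct
The *Cebpa* stretch held a TATAAA that began 30 bases before the start, a motif found in 13.6% of 32851 promoter windows. The *Cebpb* stretch held 3 copies of TGACG, at -180, -53 and -7, and 20.8% of all windows held at least 1 copy. The *Gfi1* window held the only TTGCNNAA match among the windows of the 6 members, 143 bases before the start that RefSeq gives, and 10.8% of all windows held a match. This match lay inside the longer gene span of the deposited table (chromosome 5, 107716657 to 107726036). A match to these letters is a description and not a binding site.

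The libraries held 50605309 to 61455112 counts each on the deposited scale. Low values were often multiples of 4 (40.2% to 41.3% of values from 1 to 16, where an even spread gives 25%), so that about 4 counts may stand for 1 read pair. The neutrophil gene *S100a9* was the most abundant marker, with 45062 ± 3267 FPKM in Ctrl and 56755 ± 3156 in Lig (mean ± SD, n = 3). Markers of other cells were present too, and several of these lists had sums that lay lower in every Lig library. The summed FPKM of 9 erythroid genes was 1309 to 1762.3 in Ctrl and 393 to 504 in Lig, with *Hba-a2* the most abundant at 524 and 157. The summed level of 10 B cell genes was 102 to 134 and 52.1 to 58.3 FPKM, and that of 9 T cell genes 11.7 to 14.0 and 7.05 to 8.76. The sums of 8 monocyte and macrophage genes (206 to 213 and 188 to 214 FPKM) and of 6 eosinophil and basophil genes (75.5 to 94.9 and 36.6 to 97.4) overlapped between the groups, and those of 4 megakaryocyte genes were 3.93 to 4.97 and 2.27 to 3.78. No marker of these lists was at 0 in every library. In such bulk samples, fewer cells of a type and less RNA per cell cannot be told apart.

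The members spanned a wide range of levels, which FPKM allows to be set side by side because it is scaled to length. *Cebpb* ranked 17th among all genes by mean FPKM, *Spi1* 164th, *Cebpe* 457th and *Cebpd* 752nd. The order then went through *Cebpz*, *Cebpa*, *Runx1*, *Gfi1* and *Cebpg* to *Lef1*, which ranked 13077th. Only *Runx1* and *Gfi1* had ranges over the 6 libraries that overlapped as neighbours. In Lig, *Gfi1* lay below *Runx1* without overlap. In Ctrl their ranges overlapped, and the mean of *Gfi1* was higher through Ctrl replicate 1 alone (5.84 and 4.92 FPKM). Of the summed FPKM of the 5 bZIP members *Cebpa*, *Cebpb*, *Cebpd*, *Cebpe* and *Cebpg*, *Cebpb* held 91.3% ± 0.56 in Ctrl and 90.1% ± 0.165 in Lig. *Cebpe* held 4.87% ± 0.606 and 5.89% ± 0.479, *Cebpd* 2.87% and 3.03%, *Cebpa* 0.812% and 0.79%, and *Cebpg* 0.135% and 0.165%.

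**Figure D1:**
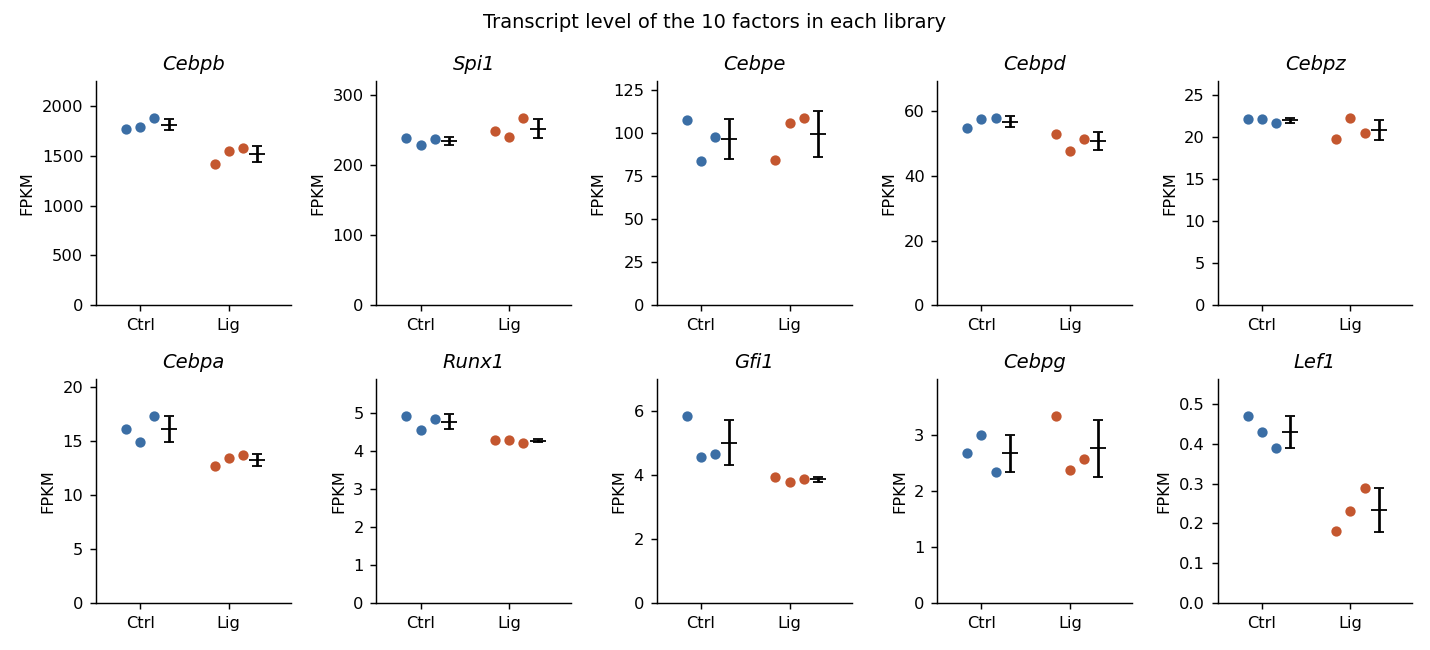
Transcript level (FPKM, linear axes from 0) of the 10 factors in 3 Ctrl (blue) and 3 Lig (orange) libraries. Each point is a library and black bars give the mean ± SD. *Cebpb*, *Cebpa*, *Gfi1*, *Runx1*, *Cebpd* and *Lef1* lay lower in every Lig library than in every Ctrl library in FPKM, *Spi1* lay higher, and the groups of *Cebpe*, *Cebpz* and *Cebpg* overlapped.

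None of the 9 tested members passed the threshold of an adjusted p of 0.05 with edgeR's quasi-likelihood test, while 10.4% of the 9632 genes tested did (3.96% higher and 6.43% lower in Lig). At an unadjusted p under 0.05 there were 4 members, *Cebpb*, *Cebpa* and *Gfi1* with a negative and *Spi1* with a positive fold change, where 28.5% of all genes tested had such a p. In CPM, counts scaled to the library total with TMM factors, the groups did not overlap for 5 of the 9 members, against 34.9% of all genes tested. Of these, *Cebpa*, *Cebpb*, *Gfi1* and *Runx1* were lower (18.1% of all genes) and *Spi1* higher in Lig (16.9%). In FPKM, which carry no TMM factors, *Cebpd* joined the members that lay lower (24.9% of all genes), and 9.90% of all genes lay higher. The median log2 fold change of the 9 members was -0.09, and that of all genes tested was -0.001.

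*Cebpb* (chromosome 2, 167688915 to 167690418, a single exon on the plus strand) was the member nearest to the threshold. Its level was 1768, 1788 and 1874 FPKM in Ctrl and 1421, 1548 and 1578 in Lig. Every Lig library lay below every Ctrl library, with means of 1809.8 ± 56.3 and 1516 ± 83.2 FPKM (SD, n = 3). The log2 fold change was -0.18 ± 0.05 (SE, 95% interval -0.30 to -0.06, edgeR adjusted p = 0.0695). *Cebpb* was called lower in 5 alternative fits: with a filter of mean FPKM of at least 5 (-0.23, edgeR adjusted p = 0.036), with scaling to library size alone (-0.26, 0.0203), and with limma on log2(FPKM + 1) (-0.26, 0.0369), log2(FPKM + 0.1) (-0.26, 0.0354) or log2(TPM + 1) (-0.33, 0.022). The shares of all genes called lower in these fits were 7.64%, 9.52%, 7.26%, 7.17% and 12.8%. Their all-gene medians were, in the same order, 0.006, -0.083, -0.063, -0.076 and -0.144, against -0.001 in the fit given first. *Cebpb* was not called by edgeR without a filter (-0.14, adjusted p = 0.239), with RLE factors (-0.18, 0.0743) or with counts divided by 4 (-0.18, 0.0706). Neither a block for replicate number (-0.18, edgeR adjusted p = 0.116) nor DESeq2 (-0.18, adjusted p = 0.0599) gave a call. *Tmem189* on the opposite strand shares 20.7% of the exonic bases of *Cebpb*, and since the strandedness of the libraries is not known, reads of the shared part cannot be assigned. The level of *Tmem189* was 185 ± 7.77 FPKM without and 139 ± 18.6 with ligatures (-0.34 ± 0.10, adjusted p = 0.0685). A list of 8 early response genes, which stimulation or handling of cells induces, had a summed level of 4079.1 to 4597.2 FPKM in Ctrl and 3248.4 to 3838.2 in Lig. *Junb* was the most abundant of them at 2122 and 1833 FPKM. Of the 8 fold changes 5 were negative and 3 positive, with *Egr1* called higher and *Dusp1* called lower. When 1 library was left out, *Dusp1* was called only without Lig replicate 1 or 2, and *Egr1* only without Ctrl replicate 1. The part of this list in the level of *Cebpb* was not tested.

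*Spi1* (chromosome 2, 91082390 to 91114366, plus strand) encodes the ETS factor PU.1, whose dose steers the choice between granulocyte and monocyte or lymphoid fates. The Ctrl libraries held 239, 229 and 237 FPKM and the Lig libraries 249, 240 and 267. All 3 Lig libraries lay above all 3 Ctrl libraries, but the lowest Lig library exceeded the highest Ctrl library only slightly. The log2 fold change was 0.18 ± 0.05 (95% interval 0.06 to 0.30, edgeR adjusted p = 0.0715), and DESeq2 called *Spi1* higher (0.18, adjusted p = 0.0411), as it did 7.94% of all genes tested. Its fold change was 0.10 with library size alone and with limma on FPKM, and 0.02 with TPM, where the median of all genes was -0.08, -0.06 and -0.14.

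*Cebpa* (chromosome 7, 35119293 to 35121928, a single exon on the plus strand) is needed for the step to granulocyte and monocyte progenitors. It was measured at 16.1, 14.9 and 17.3 FPKM in Ctrl and at 12.7, 13.4 and 13.8 in Lig. The groups did not overlap, and the log2 fold change was -0.20 ± 0.07 (95% interval -0.38 to -0.03, edgeR adjusted p = 0.123). With limma on log2(TPM + 1) *Cebpa* was called lower (-0.35, adjusted p = 0.0425), as were 12.8% of all genes, and the median of all genes was -0.144. *Cebpg*, which lies 62719 bases away on the opposite strand of chromosome 7, encodes a C/EBP that lacks an activation domain of its own and pairs with other bZIP factors. *Cebpg* was scarce, at 2.67, 2.99 and 2.33 FPKM in Ctrl and at 3.33, 2.37 and 2.56 in Lig. The libraries of both groups were interleaved, and the log2 fold change of *Cebpg* was 0.12 ± 0.16 (95% interval -0.26 to 0.51, edgeR adjusted p = 0.675).

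*Gfi1* (chromosome 5, minus strand) had the largest fold change by size among the 9 tested members. This zinc finger repressor is required for neutrophil formation in mice. Its level was 5.84, 4.56 and 4.64 FPKM in Ctrl and 3.94, 3.77 and 3.87 in Lig. The Lig libraries lay close together below all Ctrl libraries, of which Ctrl replicate 1 was the highest, and the log2 fold change was -0.30 ± 0.12 (95% interval -0.57 to -0.03, edgeR adjusted p = 0.143). Over the 6 libraries, the genes whose log2 CPM was most like that of *Gfi1* were *Bri3bp*, *Eif5b* and *Phb* (Pearson r = 0.991 for each). Of the 9631 other genes tested, 59 had an r above 0.95, and the points share library, depth and the group difference. None of these 3 was called (edgeR adjusted p = 0.123, 0.153 and 0.0849), and Ctrl replicate 1 was the highest library of *Bri3bp* (1.63 FPKM, all others 0.88 to 1.21), *Eif5b* (3.43, others 2.2 to 2.68) and *Phb* (3.57, others 1.97 to 2.78) as well. The summed level of 7 granulocyte progenitor genes, with *Mpo* the most abundant, was 147.55 to 163.15 FPKM in Ctrl and 77.9 to 124 in Lig, and 0 of 6 tested were called by edgeR, 2 (*Mpo* and *Elane*) having an unadjusted p under 0.05 and being called lower by DESeq2. Their part in the levels of *Gfi1* and *Cebpa* was not tested.

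*Cebpe* (chromosome 14, 54710360 to 54712174, minus strand), the regulator of secondary granule genes, was measured at 107, 84.0 and 97.8 FPKM in Ctrl and at 84.0, 106 and 108 in Lig. Each group had 1 library near 84 FPKM and the groups overlapped throughout. The log2 fold change was 0.12 ± 0.12, and its 95% interval of -0.15 to 0.39 holds both a small decrease and an increase (edgeR adjusted p = 0.55). *Cebpd* (chromosome 16, 15887286 to 15891031, plus strand), a C/EBP of the acute phase response that is also active in maturing granulocytes, was measured at 54.9, 57.7 and 57.9 FPKM in Ctrl and at 53.1, 47.6 and 51.6 in Lig. The groups of *Cebpd* did not overlap in FPKM but did so in CPM, and the log2 fold change was -0.09 ± 0.06 (95% interval -0.24 to 0.06, edgeR adjusted p = 0.417). With limma on log2(TPM + 1) *Cebpd* was called lower (-0.24, adjusted p = 0.0457), in a fit that called 12.8% of all genes lower and had a median of -0.144. *Spidr* on the opposite strand shares 15.0% of its exonic bases and stood at 4.98 and 5.33 FPKM.

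*Runx1* (chromosome 16, 92601466 to 92826149, minus strand) is needed for the origin of blood stem cells and acts on many myeloid genes. The Ctrl libraries held 4.92, 4.56 and 4.85 FPKM and the Lig libraries 4.30, 4.30 and 4.22. The groups lay apart by a small margin, and the log2 fold change was -0.09 ± 0.05 (95% interval -0.21 to 0.04, edgeR adjusted p = 0.357). *Cebpz* (chromosome 17, 78919006 to 78937066, minus strand), named for binding the CCAAT box, is not a bZIP protein and belongs to a family known for ribosome formation. It was measured at 22.1, 22.2 and 21.7 FPKM in Ctrl and at 19.8, 22.2 and 20.5 in Lig. The groups of *Cebpz* overlapped, and the log2 fold change was -0.0041 ± 0.0605 (95% interval -0.15 to 0.14, edgeR adjusted p = 0.974).

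*Lef1* (chromosome 3, 131110471 to 131224356, plus strand) encodes a DNA-binding partner of β-catenin that lymphocytes use and that is low in neutrophil progenitors of humans with severe congenital neutropenia. It was scarce here, with 0.47, 0.43 and 0.39 FPKM in Ctrl and 0.18, 0.23 and 0.29 in Lig. The unscaled counts behind these values were 292, 260 and 210 in Ctrl and 110, 116 and 172 in Lig. The groups did not overlap in FPKM. Among the 9632 genes tested, which leave out *Lef1*, 24.9% lay lower in every Lig library in FPKM. The share among genes as scarce as *Lef1* was not measured. In the fit without a filter the log2 fold change of *Lef1* was -0.78 ± 0.22 (edgeR adjusted p = 0.1). *Lef1os1* on the opposite strand, which shares 13.7% of the exonic bases of *Lef1*, had 0.6 ± 0.0755 FPKM in the Ctrl libraries and 0.353 ± 0.0737 in the Lig libraries. Of 4 T cell markers tested, 2 were called lower by edgeR, and of 9 B cell markers 6 (median log2 fold change -0.98, with *Cd79a* the most abundant at 54.6 and 26.3 FPKM). The T cell calls were not stable, with 1 left without Lig replicate 2 and 0 without any other library. Of the B cell markers, 4 to 6 were called without 1 library. Lymphocytes express *Lef1*, and the part of these cells in its level was not tested.

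**Figure D2:**
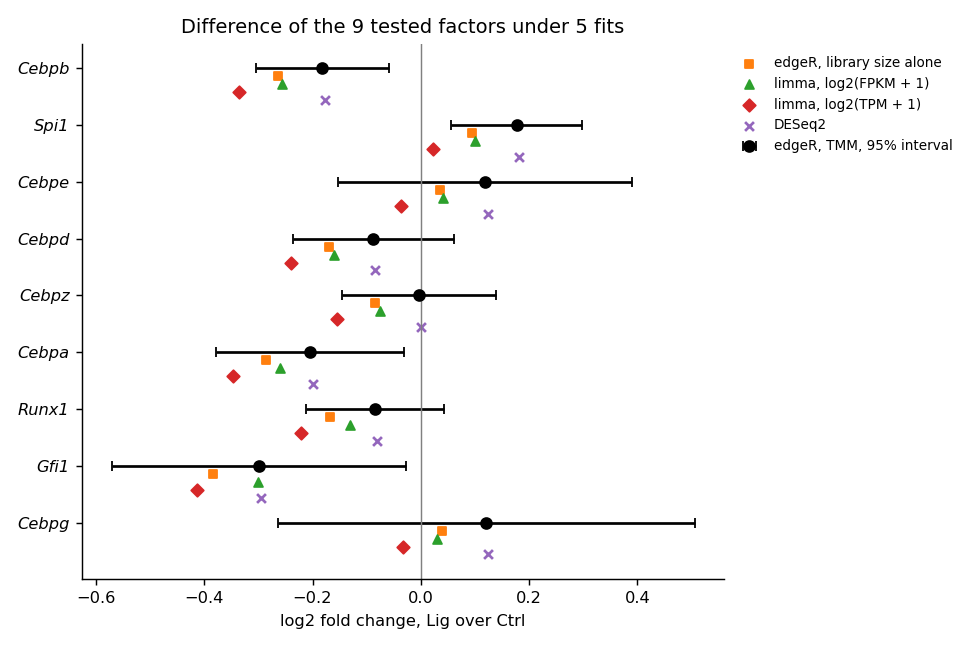
Log2 fold change of Lig over Ctrl of the 9 tested factors. Black points with bars are edgeR with TMM scaling and the 95% interval, and coloured markers are the estimates of 4 alternative fits. The intervals of *Cebpb* (-0.30 to -0.06), *Cebpa*, *Gfi1* and *Spi1* (0.06 to 0.30) leave out 0 before any adjustment, and with TPM the estimates lay lowest for every factor.

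Ratios of members within a library do not depend on the scaling between libraries. They were chosen after the values were seen, and with 3 libraries against 3 the smallest p that an exact 2-sided permutation test allows is 0.1. *Spi1* over *Cebpa* was 14.9, 15.3 and 13.7 in Ctrl and 19.7, 17.9 and 19.4 in Lig. These groups did not overlap, and the ratio was 1.3-fold higher in Lig (exact permutation p = 0.1, 0.2 adjusted over 8 ratios). *Spi1* over *Cebpb* was 0.135, 0.128 and 0.126 in Ctrl and 0.175, 0.155 and 0.169 in Lig (1.28-fold, exact p = 0.1, adjusted 0.2). *Spi1* over *Gfi1* was 40.9, 50.1 and 51.1 in Ctrl and 63.3, 63.7 and 68.9 in Lig (1.38-fold, exact p = 0.1, adjusted 0.2). Among ratios of *Spi1* over each of 9590 other genes with values above 0, 35.0% lay apart with Lig higher, so that such a difference was common among genes.

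The balance between the early and the abundant C/EBP gene differed little. *Cebpb* over *Cebpa* was 110, 120 and 108 in Ctrl and 112, 115 and 115 in Lig (1.01-fold, exact permutation p = 0.8). *Cebpb* over *Cebpd* was 0.937-fold in Lig relative to Ctrl (exact p = 0.4). *Cebpe* was 1.25-fold higher over *Cebpa* and 1.23-fold higher over *Cebpb* in Lig, with overlapping groups (exact p = 0.2 each, 0.267 adjusted). *Cebpe* over *Gfi1* was 18.4, 18.4 and 21.1 in Ctrl and 21.3, 28.0 and 28.0 in Lig, which did not overlap (1.33-fold, exact p = 0.1, adjusted 0.2). Of the ratios of *Cebpe* over all other genes, 17.5% lay apart with Lig higher.

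**Figure D3:**
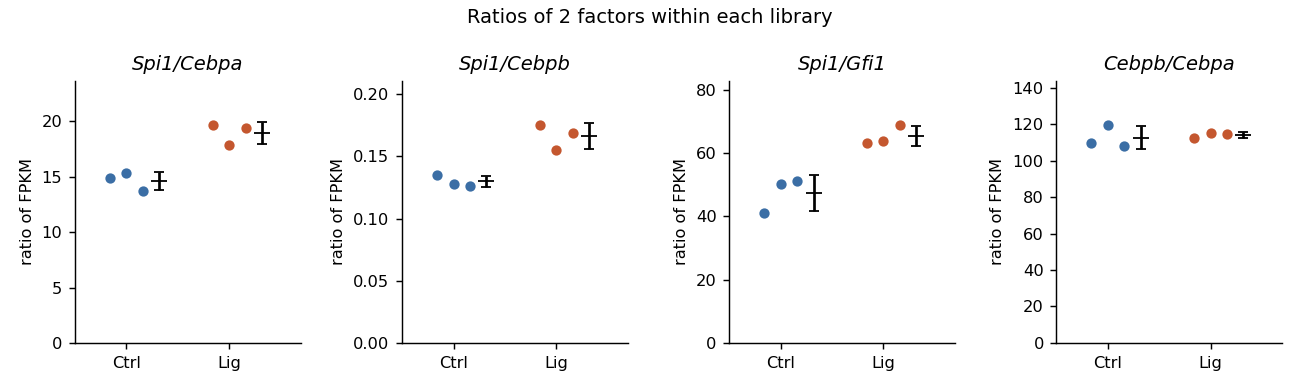
Ratio of FPKM (linear axes from 0) of *Spi1* to *Cebpa*, *Cebpb* and *Gfi1* and of *Cebpb* to *Cebpa* within each Ctrl (blue) and Lig (orange) library, with the mean ± SD in black. The 3 *Spi1* ratios were higher in every Lig library (1.28-fold to 1.38-fold), and the *Cebpb* to *Cebpa* ratio overlapped (1.01-fold).

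Genes around the members were read from lists of partners, relatives and known targets. Of 82 genes tested from these lists, 10 were called higher in Lig, 14 lower and 58 not (edgeR), with a median log2 fold change of -0.07. Over all genes tested, 3.96% were called higher and 6.43% lower. The 10 that rose were 9 secondary granule and late genes and *Egr1*, and the 14 that fell were all transcription factors or their regulators. Most lists hold only factors, partners and regulators, so this split follows in part from how the lists were made. They were chosen with earlier results of these data known. Without Ctrl replicate 3 the number called dropped from 24 to 9, without Lig replicate 3 to 10 and without Lig replicate 1 to 15.

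Among 11 tested partners and modifiers of C/EBP proteins, 2 fell and none rose (median -0.18). *Trib2*, a pseudokinase that directs C/EBPα to degradation, fell from 2.55 ± 0.366 to 1.13 ± 0.0608 FPKM (-1.09 ± 0.14, edgeR adjusted p = 0.00777). *Batf*, a bZIP factor of the AP-1 group, fell from 29.6 ± 0.173 to 16.7 ± 3.03 FPKM (-0.75 ± 0.13, adjusted p = 0.0177). The call of *Trib2* held without each library in turn, and that of *Batf* was lost without Ctrl replicate 1 (adjusted p = 0.0536), Ctrl replicate 3 (0.0633) or Lig replicate 3 (0.071). The CHOP gene *Ddit3*, chosen here after its values were seen as a C/EBP relative, stood at 51.7 ± 5.08 and 43.1 ± 5.63 FPKM (adjusted p = 0.357).

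Relatives of PU.1 and Runx1 were called lower where they were called. Of 9 ETS genes tested, *Spib*, the closest relative of *Spi1* and a gene of B cells and plasmacytoid dendritic cells, fell from 15.6 ± 3.45 to 7.36 ± 0.971 FPKM (-1.01 ± 0.17, edgeR adjusted p = 0.0153). *Ets2* fell from 161 ± 0.983 to 127 ± 7.64 FPKM (-0.28 ± 0.05, adjusted p = 0.025). Of 4 tested genes of the RUNX family and its partners, *Runx3* fell from 5.24 ± 0.612 to 3.46 ± 0.183 FPKM (-0.52 ± 0.10, adjusted p = 0.026) and the corepressor gene *Cbfa2t3* from 1.92 ± 0.315 to 0.98 ± 0.272 (-0.89 ± 0.21, adjusted p = 0.0396). *Cbfb*, whose protein pairs with every Runx factor, stood at 11.4 ± 2.0 and 11.5 ± 0.268 FPKM (adjusted p = 0.671), a gene chosen after its values were seen. These 4 calls were not stable when 1 library was left out, although the log2 fold changes stayed negative. They were -1.16 to -0.86 for *Spib*, -0.32 to -0.25 for *Ets2*, -0.60 to -0.45 for *Runx3* and -1.13 to -0.75 for *Cbfa2t3*. Without 1 library *Spib* was called in 3 of 6 fits and *Ets2*, *Runx3* and *Cbfa2t3* in 1 each, and without Ctrl replicate 3 their adjusted p was 0.0568, 0.0884, 0.094 and 0.0968. Without Lig replicate 3 it was 0.062, 0.0936, 0.0933 and 0.121, and without Lig replicate 1 it was 0.0504, 0.0676, 0.0709 and 0.0966. *Ets2*, *Runx3* and *Cbfa2t3* also lost the call without Ctrl replicate 1 (0.0567, 0.0713 and 0.113), *Ets2* and *Cbfa2t3* without Ctrl replicate 2 (0.0595 and 0.0604) and *Runx3* without Lig replicate 2 (0.051).

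None of 7 tested relatives and corepressors of Gfi1 was called by edgeR with all libraries, and 3 (*Gfi1b*, *Ehmt2* and *Hdac2*) had an unadjusted p under 0.05. *Gfi1b* and *Ehmt2* were called lower by DESeq2 and by edgeR without Ctrl replicate 2, and *Ehmt2* also with library size alone and with TPM. *Gfi1b*, the relative of *Gfi1* that erythroid cells and megakaryocytes use, had 1.66 ± 0.682 FPKM in the Ctrl libraries and 0.56 ± 0.218 in the Lig libraries (-1.48 ± 0.42, adjusted p = 0.0646), and 8 of 9 erythroid markers were called lower in the same libraries. The part of erythroid cells was not tested. Of 10 tested relatives and partners of Lef1, *Tcf7*, a T cell factor of the same family, fell from 1.79 ± 0.325 to 0.923 ± 0.0757 FPKM (-0.87 ± 0.18, edgeR adjusted p = 0.0295). It was called in 1 of the 6 fits without 1 library, that without Ctrl replicate 1, and its adjusted p in the others was 0.0661 to 0.0996.

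Among 14 other granulocyte and monocyte fate factors, 1 rose and 3 fell. *Klf4*, a zinc finger factor known for monocyte formation, fell from 17.4 ± 1.4 to 9.77 ± 0.638 FPKM (-0.76 ± 0.08, edgeR adjusted p = 0.00448), and *Id1*, an inhibitor of basic helix-loop-helix factors, from 41.1 ± 1.76 to 26.7 ± 1.12 (-0.55 ± 0.07, adjusted p = 0.00792). Both calls held without each library in turn. The retinoic acid receptor gene *Rarg* fell from 7.27 ± 0.35 to 5.02 ± 0.266 FPKM (-0.46 ± 0.08, adjusted p = 0.0191), and *Egr1* rose from 55.3 ± 5.93 to 68.8 ± 5.47 (0.39 ± 0.08, adjusted p = 0.032). *Rarg* was called in 2 of the 6 fits without 1 library, not without Ctrl replicate 3 (0.0845) or any of the Lig replicates (0.0536 to 0.0593), and *Egr1* only without Ctrl replicate 1 (otherwise 0.0502 to 0.0996). With library size alone, limma on FPKM or TPM, *Egr1* was not called (0.0745, 0.0916 and 0.162).

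Of 6 tested stem and progenitor factors, 4 fell (median -0.87). *Myb* fell from 6.1 ± 0.406 to 3.57 ± 0.414 FPKM (-0.69 ± 0.09, edgeR adjusted p = 0.00925) and *Sox4* from 7.59 ± 1.21 to 3.25 ± 0.609 (-1.15 ± 0.16, adjusted p = 0.0101), and both were called without each library in turn. The erythroid and stem cell factors *Gata1* (2.12 ± 0.782 to 0.59 ± 0.193 FPKM, adjusted p = 0.0256) and *Tal1* (1.45 ± 0.391 to 0.667 ± 0.085, adjusted p = 0.032) fell as well. Without Ctrl replicate 1 (0.0738 and 0.0864), Ctrl replicate 3 (0.0813 and 0.095), Lig replicate 1 (0.0689 and 0.0863) or Lig replicate 3 (0.0895 and 0.0983) neither was called, nor was *Tal1* without Lig replicate 2 (0.0645). The summed level of the erythroid and progenitor markers given above moved with these genes, and its part was not tested.

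With edgeR and TMM scaling, known target genes of the members were called in the secondary granule list and in neither of the other target lists. The 5 growth factor receptor genes *Csf3r*, *Csf2ra*, *Csf2rb*, *Csf1r* and *Il6ra* were not called (median 0.07, edgeR adjusted p = 0.0579 to 0.864), although 2 (*Csf3r* and *Il6ra*) had an unadjusted p under 0.05 and DESeq2 called *Il6ra* higher. The 6 tested promyelocyte genes, which C/EBPα, PU.1 and Runx1 are known to activate, were not called by edgeR either. Of these 6, 5 had negative fold changes (median -0.42) and 3 (*Mpo*, *Elane* and *Cst7*) an unadjusted p under 0.05. DESeq2 and limma on log2(TPM + 1) called these 3 lower, and edgeR called *Mpo* lower with library size alone, with a mean FPKM of at least 5 and without Lig replicate 1. Of 10 granule and late genes known to need C/EBPε, 9 rose, with a median log2 fold change of 0.32. The number called was 4 without Ctrl replicate 3, 5 without Lig replicate 3 and 4 with TPM. Of 9 general neutrophil markers, all with positive fold changes, edgeR called 3 higher and did not call 6. The log2 fold changes of the 3 were 0.32 ± 0.05 for *Ly6g* (edgeR adjusted p = 0.0153), 0.48 ± 0.08 for *S100a8* (0.0136) and 0.41 ± 0.07 for *S100a9* (0.018). None of the 9 was called without Ctrl replicate 3. The part of these markers in the granule list was not tested. *Mmp8* did not pass the threshold (adjusted p = 0.0562). *Ngp*, *Chil3*, *Ltf* and *Lcn2* were called without each library in turn, *Camp* in 5 and *Cd177* in 4 of the 6 fits, and their log2 fold changes were 0.30 to 0.40. *Camp* lost its call without Ctrl replicate 3 (0.0544), as did *Cd177* (0.0626), which also lost it without Lig replicate 3 (0.0562). The log2 fold change of *Cebpe* in the same libraries was 0.12 ± 0.12 (adjusted p = 0.55).

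**Figure D4:**
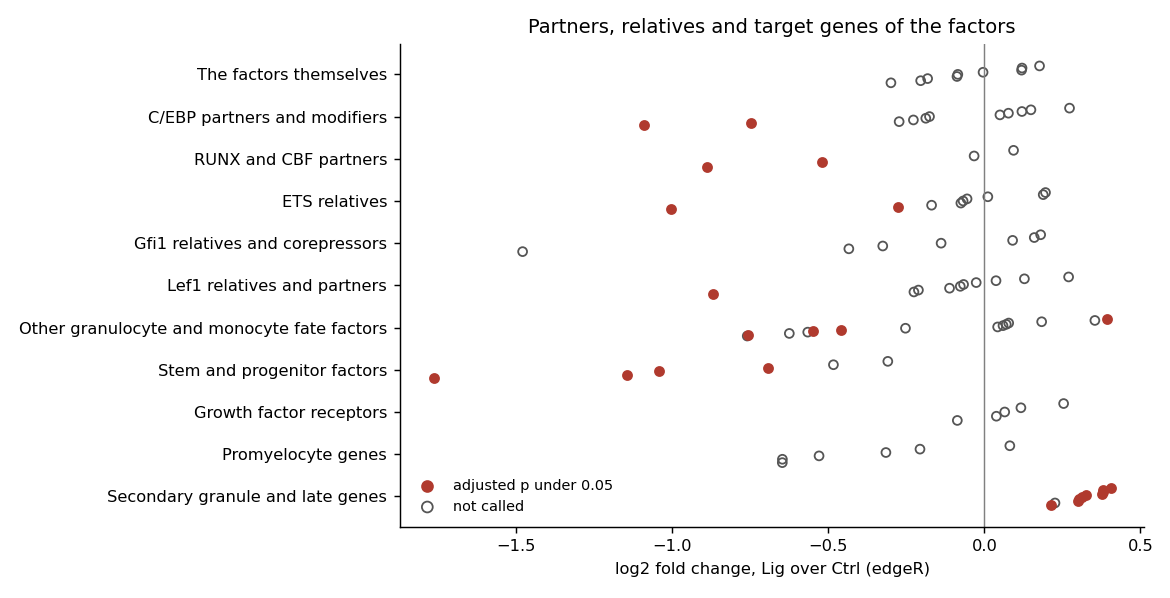
Log2 fold change of Lig over Ctrl (edgeR) of the 9 tested factors and of the tested genes in each list of partners, relatives and targets. Filled red points have an adjusted p under 0.05 and open points do not. No factor is filled, all 10 secondary granule and late genes lie to the right with 9 of them filled, and 4 of 6 stem and progenitor factors are filled to the left.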

How the data were processed

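RNA of sorted marrow neutrophils was sequenced in paired-end reads in 3 Ctrl and 3 Lig libraries, grouped by their labels. Per the submitters' processing notes, cutadapt 1.9 and FastQC were used and the build was GRCm38. The sources used here do not name the aligner, quantifier, annotation release or strandedness. The authors deposited FPKM and expected counts for 55401 genes. The deposited expected counts were whole numbers and were used as they stand, so that the precision of low genes may be overstated if about 4 counts stand for 1 read pair. The test covered 9632 genes whose mean FPKM reached 1, and was run with edgeR 4.0.16 in R 4.3.3 (TMM, quasi-likelihood, 1 group coefficient, Benjamini-Hochberg adjustment over all of them, threshold 0.05, common dispersion 0.0354). The SE is the size of the log2 fold change divided by the square root of F. The p-values measure the spread between pools of mice.

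Alternatives were limma 3.58.1 on log2(FPKM + 1), log2(FPKM + 0.1) and log2(TPM + 1), DESeq2 1.42.0, RLE factors, library size alone, counts divided by 4, other filters, a block for replicate number and leaving out each library. The code was tested on simulated data. Promoter windows and motif shares come from RefSeq tables, and gene overlaps from GENCODE M21. The members and gene lists were chosen with earlier results of these data known. Named were the members, up to 6 called genes of each list with the smallest p, and the 3 genes most like the member with the largest fold change. Marker lists were represented by their most abundant gene. Genes outside this rule, *Tmem189*, *Spidr*, *Lef1os1*, *Gfi1b*, *Ehmt2*, *Hdac2*, *Mpo*, *Elane*, *Cst7*, *Mmp8*, *Ly6g*, *S100a8*, *Ddit3*, *Cbfb*, *Dusp1* and the 5 receptor genes, were named after their values were seen. The neighbours *Cebpzos* and *A430072P03Rik* were also named after their values were seen. *Azu1* of the promyelocyte list had no entry of that name.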

Additional observations from a re-analysis of the deposited data

How the results depend on the processing

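With edgeR and TMM scaling none of the 9 tested members was called. DESeq2 called 1 member higher (*Spi1*). The number called lower was 1 (*Cebpb*) with a mean FPKM of at least 5, with library size alone, and with limma on log2(FPKM + 1) or log2(FPKM + 0.1), and 3 (*Cebpa*, *Cebpb* and *Cebpd*) with TPM, which moved the median of all genes to -0.144. Without 1 library, no member was called in any of the 6 fits. The log2 fold change reversed for *Cebpe* (-0.036) and *Cebpg* (-0.033) with TPM and for *Cebpz* without a filter (0.0355), and, without 1 library, for *Cebpg* (-0.044 to 0.227, reversed without Lig replicate 1) and *Cebpz* (-0.0499 to 0.0268, reversed without Ctrl replicate 2, Lig replicate 1 or Lig replicate 3). None of these was called, and the cause was not tested. Without 1 library, 9 to 22 genes of the lists were called, against 24. Shared replicate numbers did not pair the libraries (correlation of deviations -0.1, -0.104 and 0.0252), and a block for replicate number left 1 call in the lists, no call among the members, and 16 genes higher and 38 lower in all, against 381 and 619. Over all genes, the calls higher and lower were 168 and 917 with library size alone, 165 and 699 with limma on log2(FPKM + 1), 165 and 691 with log2(FPKM + 0.1), 97 and 1232 with TPM, 749 and 994 with DESeq2, 228 and 376 with a mean FPKM of at least 5, and 257 and 410 without a filter. Without 1 library they were 83 to 249 and 195 to 445. *Lef1* had the fewest counts of the members, 110 to 292 per library.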

Other observations

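Further genes overlap members on the other strand, and differences between a member and its neighbour were not tested. *Cebpzos*, which shares 3.67% of the exonic bases of *Cebpz*, had 3.32 ± 0.241 FPKM in the Ctrl libraries and 2.60 ± 0.451 in the Lig libraries (log2 fold change -0.27 ± 0.18, edgeR adjusted p = 0.373). *A430072P03Rik*, which shares 3.17% of those of *Gfi1*, stood at 0.607 ± 0.172 and 0.563 ± 0.25 FPKM, with overlapping groups.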
